A study of Mus musculus with 4 samples.

Results

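Antioxidant enzymes, their helper proteins and the transcription factor Foxo3 were followed through blood stem and progenitor cells labelled as lacking Mll3, Mll4, both or neither. The 10 genes, out of 32285 in the matrices, were listed by name: Foxo3, Sod1, Sod2, Cat, Gpx1, Prdx1, Prdx2, Txn1, Txnip and Gclm. All 10 were present in each of the 4 matrices. The cells were mouse bone marrow cells of donor origin (CD45.2+), negative for lineage markers and positive for Sca1 and Kit. This sorted fraction is called LSK and is enriched for stem cells and the progenitors nearest to them. It was collected 10 weeks after transplantation, and each genotype had 1 library: control, Mll3 deleted, Mll4 deleted and Mll3/4 deleted. Mll3 and Mll4 are histone methyltransferases encoded by Kmt2c and Kmt2d. The deleter, the strain, the number of donors and recipients per library and what the control carried were not given in the sources used here.

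Reactive oxygen species form mainly in mitochondria and by NADPH oxidases, and blood stem cells are known to lose function when these species build up. Superoxide dismutases turn superoxide into hydrogen peroxide. Catalase, glutathione peroxidases and peroxiredoxins remove the peroxide, with electrons from glutathione or thioredoxin. Foxo3 is a transcription factor that is restrained by PI3K and AKT signalling and is known to switch on Sod2, Cat and cell-cycle inhibitors in resting stem cells. Nrf2, another transcription factor, acts through the antioxidant response element on genes such as Gclm and Prdx1. Txnip binds and inhibits thioredoxin and also lowers glucose uptake.

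The windows before the start sites were searched on both strands for the antioxidant response element core (TGACNNNGC), the FOXO motif (GTAAACA) and the E-box (CACGTG). Each window had 300 bases, 250 before and 50 after the start, and all 10 genes had an entry. Of 32841 mouse promoters, 12.4% held the first motif, 3.65% the second and 7.15% the third. The 4 sequences below are shown because they hold every match found among the 10 genes, and the capitals mark the match in the 250 bases before the start site. Sequences and coordinates are from RefSeq on GRCm38.p6. The core motif lay on the opposite strand in Gclm (first base at -134), Prdx1 (-133) and Sod1 (-56), and the FOXO motif on the same strand in Txnip (-121).
Gclm promoter, chr3:122245307-122245556, plus strand: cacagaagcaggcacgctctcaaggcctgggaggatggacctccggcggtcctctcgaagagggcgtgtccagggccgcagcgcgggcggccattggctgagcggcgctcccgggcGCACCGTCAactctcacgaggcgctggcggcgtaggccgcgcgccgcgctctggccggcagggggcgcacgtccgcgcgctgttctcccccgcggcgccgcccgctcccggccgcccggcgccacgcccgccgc
Prdx1 promoter, chr4:116685349-116685598, plus strand: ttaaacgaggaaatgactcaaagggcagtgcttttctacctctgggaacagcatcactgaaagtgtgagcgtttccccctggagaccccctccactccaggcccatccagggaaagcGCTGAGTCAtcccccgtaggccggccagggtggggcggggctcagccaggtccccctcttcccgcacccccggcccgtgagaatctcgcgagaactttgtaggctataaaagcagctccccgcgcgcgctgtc
Sod1 promoter, chr16:90220512-90220761, plus strand: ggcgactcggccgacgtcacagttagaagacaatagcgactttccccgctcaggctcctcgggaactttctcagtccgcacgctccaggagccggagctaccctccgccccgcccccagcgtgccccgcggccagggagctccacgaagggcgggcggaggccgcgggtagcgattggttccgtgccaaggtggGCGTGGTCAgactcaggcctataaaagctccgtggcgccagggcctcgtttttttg
Txnip promoter, chr3:96557707-96557956, plus strand: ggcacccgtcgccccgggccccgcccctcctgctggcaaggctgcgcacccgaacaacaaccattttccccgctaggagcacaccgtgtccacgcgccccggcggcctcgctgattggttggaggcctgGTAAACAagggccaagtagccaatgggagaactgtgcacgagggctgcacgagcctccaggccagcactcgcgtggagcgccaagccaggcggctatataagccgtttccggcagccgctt
None of these genes held the E-box, and Foxo3, Sod2, Cat, Gpx1, Prdx2 and Txn1 held no match to any of the 3 motifs in this window. A match is a description of the letters and not evidence of binding.

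Values are counts of unique molecular identifiers (UMIs), added up within each library and set to a total of 1000000 UMIs (CPM). Cells needed 1000 detected genes or more and no more than 10% of UMIs from mitochondrial genes, which left between 4748 and 7274 cells and between 50792614 and 120700343 UMIs per library. The filter kept 4793 of 7702 deposited barcodes in the Mll4-labelled library. It kept 7274 of 7682 in the control, 6101 of 6560 in the Mll3-labelled and 4748 of 5136 in the Mll3/4-labelled library. The median depth was lowest in the Mll3/4-labelled library (8920 UMIs per cell) and highest in the Mll4-labelled library (21400). Any pair of libraries shared 7 to 14 barcodes. There were no replicates, so no test was run, and the 95% intervals given here cover counting error only. A gene was called different at 2-fold or more, provided that the libraries compared averaged 20 CPM or more. Wherever 4 values follow each other without names, their order is control, Mll3, Mll4, Mll3/4. Kmt2c stood at 68.9, 35.3, 61.3 and 42.3 CPM, and Kmt2d at 24.6, 21.6, 22.6 and 25.4. Kmt2d thus did not separate the libraries labelled as Mll4 deleted from the others, so libraries are named by their labels, although 3-prime counts can still include RNA from an allele whose deletion lies upstream.

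Cell makeup differed between libraries and touches every value that follows. In the Mll3/4-labelled library 4719 of 4748 cells fell in B-lineage-like clusters. There the 13 markers of the B lineage, all detected, summed to 14585 CPM against 68.8 in the control, and the 12 stem-cell markers, all detected, to 140 against 1301. In the Mll4-labelled library 44.1% of cells lay in clusters of mast, macrophage, plasma, T or innate lymphoid and stromal cells, against 0.126% to 2.82% in the other libraries. Its 10 granulocyte-monocyte markers summed to 10564 against 1044, its 10 macrophage markers to 727 against 25.3 and its 9 mast cell and basophil markers to 1698 against 25.7, with none at 0. The 8 neutrophil markers of that library, all detected, summed to 5998 against 836. A lower level in a sum over cells can mean fewer cells of a type or less RNA per cell, which cannot be told apart here.

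A subset was gated with barcoded antibodies as CD150-high CD48-low, the surface profile in which stem cells are enriched in normal marrow. It held 1850, 2926, 383 and 1917 cells. Of the control's gated cells 912 were HSC-like (named for hematopoietic stem cells) and 931 lay in unnamed clusters, while 369 of the 383 gated Mll4-labelled cells were in unnamed clusters and 4 were HSC-like. The stem-cell markers summed to 1985, 1658, 1867 and 147 CPM in these cells, so they were present in 3 of the libraries and near absent in the Mll3/4-labelled library, where 1911 of the 1917 gated cells were B-lineage-like. The median CD150 antibody count of those gated cells was 50 against 155 in the control. With antibody counts that were not centred within the cell, the gate held only 210 cells of that library (4.42%). The gated Mll3/4-labelled cells are therefore called by their gate and not stem cells. Beside the stem-cell markers, the gated Mll4-labelled cells held neutrophil markers at 2019 CPM, against 17.1 in the gated control cells. Their erythroid markers summed to 2050 against 873, and their plasma and mature B markers to 1226 against 462. Their megakaryocyte (221 against 250) and B-lineage markers (25.1 against 29.2) were not higher.

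At 2-fold, 3 of the 10 genes were lower in the Mll3/4-labelled LSK (Foxo3, Gpx1 and Gclm), where 8.75% of 5979 genes were that much lower. In the Mll4-labelled LSK 2 were lower (Prdx2 and Gclm), against 3.08% of 6046 genes. None was past 2-fold in the Mll3-labelled LSK, where 0.920% of 6084 genes were past it in either direction. The Prdx2 and Gclm calls of the Mll4-labelled LSK were lost under 4 of the other settings tried, among them leaving out the clusters of other cell types, where Prdx2 was at -0.90 and Gclm at -0.92 on the log2 scale. None of the 10 was at least 2-fold higher in the Mll4-labelled LSK, where 5.77% of genes were, or in the Mll3/4-labelled LSK, where 7.53% were. In the gated cells the counts were 0 in the Mll3-labelled library (0.904% of all genes), 0 in the Mll4-labelled library (4.11%) and 2 lower in the Mll3/4-labelled library (Gpx1 and Gclm, against 9.17% lower), with 0 higher (8.37%). At 1.5-fold, Txn1 was lower in the Mll3-labelled LSK (3.21% of genes) and Sod1 higher in Mll4-labelled gated cells (7.93%). The same threshold took in Foxo3, Sod2, Gpx1, Txnip and Gclm as lower in the Mll3/4-labelled LSK (18.7%) and in its gated cells (19.0%). The median log2 ratio of the 10 genes to the control was 0.19 (Mll3), -0.25 (Mll4) and -0.47 (Mll3/4) in LSK, beside 0.10, -0.12 and -0.08 over all genes.

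**Figure D1:**
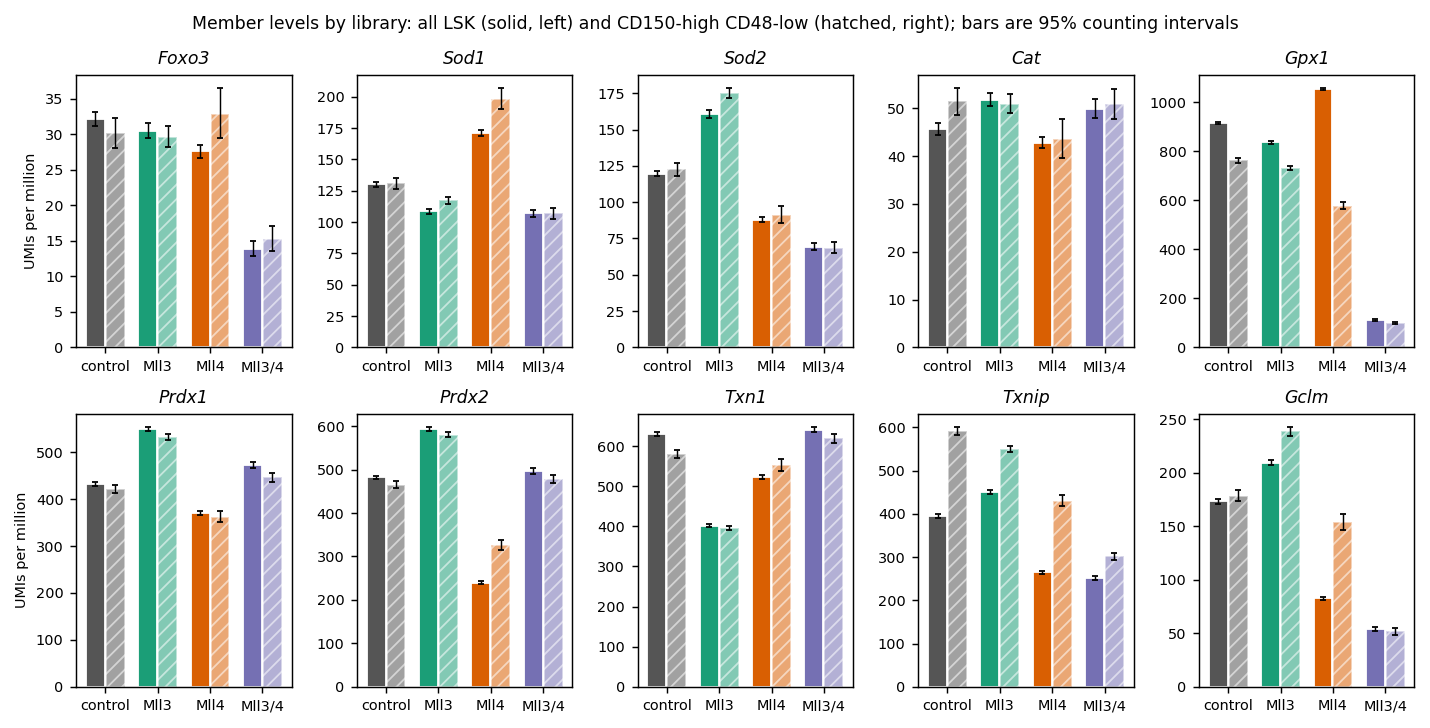
Level of each of the 10 genes in UMIs per 1000000 (CPM, y axis, starting at 0) in the 4 libraries (x axis), in all LSK cells (solid) and in CD150-high CD48-low cells (hatched), with 95% counting intervals. Gpx1 is near 100 in the Mll3/4 library and above 500 in every other bar, and Foxo3 and Gclm are also lowest there.

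Foxo3 (ENSMUSG00000048756, chromosome 10, 42181841 to 42276755, GRCm38) stood at 32.1, 30.5, 27.6 and 13.9 CPM in LSK. The first 3 libraries lay close together and the Mll3/4-labelled library was apart, at 2.32-fold lower than control (log2 -1.21, interval -1.33 to -1.10). The log2 ratio was -0.08 (-0.14 to -0.01) in the Mll3-labelled and -0.22 (-0.29 to -0.15) in the Mll4-labelled library. In gated cells the levels were 30.1, 29.7, 32.9 and 15.2, so both single libraries overlapped the control within counting error and the Mll3/4-labelled value (log2 -0.98, -1.19 to -0.79) was just short of 2-fold. Foxo3 was lower in the Mll3/4-labelled library in each of 5 surface gates, from -0.62 in MPP2 to -1.40 in MPP4. The MPP2 value rests on 22 UMIs of Foxo3. Cells high for both CD150 and CD135 are not among the 5 gates, and they made up 37.2% of the Mll3/4-labelled library against 1.73% of the control. The HSC, MPP1 and MPP2 gates held only 215, 153 and 109 cells of the Mll3/4-labelled library. Of its 4748 cells 4719 were B-lineage-like, so each of its gates held mostly such cells and is not like for like with the control. The same holds for every other gene compared by gate below.

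Low-count genes such as Foxo3 are also seen as the share of cells with at least 1 UMI. With every cell thinned to 3000 UMIs, Foxo3 was detected in 9.42%, 9.75%, 8.80% and 4.37% of cells, so again the Mll3/4-labelled library alone was apart. Before thinning these shares were 38.4%, 38.1%, 41.2% and 13.1%, and thinning left out 14, 17, 134 and 33 cells that were too shallow. No cell type in these libraries is known to lack the gene, so no background share from free RNA can be set beside them.

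By cell class Foxo3 was lower in granulocyte-monocyte-like and B-lineage-like cells than in HSC-like cells. T and innate lymphoid-like cells held 36.1 in the Mll4-labelled library (mostly clusters 15 and 22) and 21.9 (15.1 to 30.5) in the Mll3-labelled one (mostly cluster 20). HSC-like cells held 35.2 CPM in the control and 35.0 in the Mll3-labelled library, and lymphoid-primed-like cells 30.7 and 31.4. Granulocyte-monocyte-like cells held 12.8 (control), 18.1 (Mll3) and 18.0 (Mll4), and the intervals of these 3 values overlapped. B-lineage-like cells held 13.0 (9.70 to 16.95) when Mll3-labelled and 13.7 (12.7 to 14.7) when Mll3/4-labelled, a log2 difference of 0.06 (-0.33 to 0.51). The B-lineage-like cells of these libraries thus did not differ in Foxo3 beyond counting error. The 157 Mll3-labelled cells formed cluster 19, while the Mll3/4-labelled B-lineage-like cells formed clusters 2, 5 and 9, and a cluster that comes almost wholly from 1 library may reflect that library rather than a type.

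**Figure D2:**
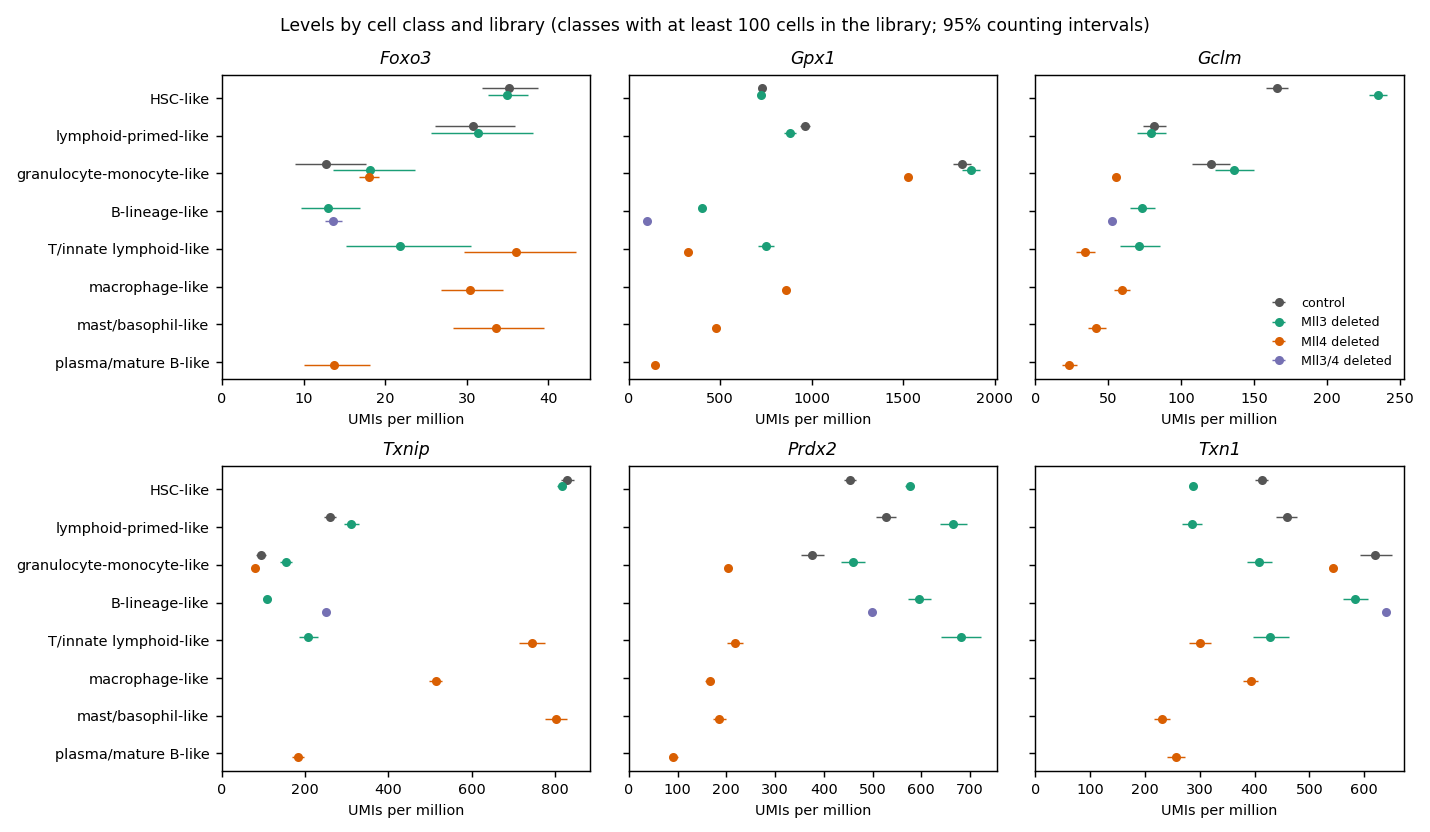
Levels of 6 genes in CPM (x axis) by cell class (y axis) and library (colour), for classes with at least 100 cells in a library, with 95% counting intervals. In B-lineage-like cells the Mll3 and Mll3/4 points coincide for Foxo3 and are far apart for Gpx1 (402 and 102).

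The superoxide dismutases differed in opposite directions in the single-deletion libraries. Sod1 (ENSMUSG00000022982, chromosome 16, 90220754 to 90226329), the cytosolic copper-zinc enzyme whose promoter is printed above, was at 130, 109, 171 and 107 CPM in LSK. The Mll4-labelled library was the only one above the control, by 1.31-fold (log2 0.39, 0.36 to 0.42), and in gated cells by 1.52-fold (0.60, 0.52 to 0.68). Sod1 was above the control there in 5 of 5 surface gates (0.32 to 0.61), and below it in 5 of 5 gates of each library that carries the Mll3 label.

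Sod2 (ENSMUSG00000006818, chromosome 17, 13006846 to 13040063), the mitochondrial manganese enzyme, showed another order: 120, 161, 87.8 and 69.4. It was higher in the Mll3-labelled library (log2 0.42, 0.39 to 0.46) and lower in the Mll4-labelled (-0.45, -0.49 to -0.41) and Mll3/4-labelled libraries (-0.79, -0.84 to -0.73). Each of these directions was found in 5 of 5 gates. Of the 6 clusters shared with the control, the HSC-like one had the largest Sod2 ratio of the Mll3-labelled library, at 187 against 120 (0.63, 0.55 to 0.72). The end of Sod2 shares stretches of 98 to 193 bases at 95% identity or more with Churc1, Pola2, Sag and Tmem245, so a part of its reads could have been lost or assigned elsewhere.

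Among the peroxide-removing enzymes of the glutathione and catalase routes, Gpx1 had the largest ratio of the 10 genes. Gpx1 (ENSMUSG00000063856, chromosome 9, 108338903 to 108340343), the cytosolic glutathione peroxidase, stood at 916, 837, 1054 and 112 CPM. The Mll4-labelled LSK ratio (0.20) was slightly below 0 when gates were weighted to control shares. The Mll3/4-labelled LSK was 8.18-fold below the control (log2 -3.03, -3.07 to -2.99), and 2.31% of 5979 genes were lower still. In gated cells the levels were 764, 732, 578 and 101, and the last was 7.58-fold lower (-2.92, -2.99 to -2.86). After thinning to 3000 UMIs, Gpx1 was found in 91.5% of control and 24.9% of Mll3/4-labelled LSK cells.

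The Gpx1 difference was large in each gate of the Mll3/4-labelled library, from -2.07 in MPP2 to -3.20 in MPP4, although each of these gates held mostly B-lineage-like cells. It also separated B-lineage-like cells: 402 CPM (382 to 422) when Mll3-labelled and 102 (98.8 to 104) when Mll3/4-labelled, which is 3.95-fold lower (log2 -1.98, -2.06 to -1.90). Plasma and mature B-like cells of the Mll4-labelled library, a later B-lineage stage, held 141 (129 to 154). In the myeloid direction, granulocyte-monocyte-like cells held 1819 (control, mostly cluster 16), 1871 (Mll3, cluster 16) and 1527 (Mll4, cluster 6). Gpx1 thus ranged more than 10-fold between the classes of these libraries. The part of class makeup in the summed Gpx1 ratios was not tested.

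Gclm (ENSMUSG00000028124, chromosome 3, 122245557 to 122270732), the modifier subunit of the enzyme that starts glutathione synthesis, was at 173, 209, 82.6 and 53.9. It was 2.10-fold lower in the Mll4-labelled (log2 -1.07, -1.10 to -1.03) and 3.21-fold lower in the Mll3/4-labelled LSK (-1.68, -1.74 to -1.63). In gated cells the Mll4-labelled ratio shrank to -0.22 (-0.30 to -0.13), with levels of 179 and 154, while the Mll3/4-labelled ratio was -1.78 (-1.89 to -1.69). Without the clusters of mast, macrophage, plasma, lymphoid and stromal cells, the Mll4-labelled LSK ratio was -0.92. Granulocyte-monocyte-like cells of that library held 55.3 against 120 in the control, from different clusters (6 and 16). In HSC-like cells Gclm was higher in the Mll3-labelled library, at 235 against 166 (0.51, 0.43 to 0.58).

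Cat (ENSMUSG00000027187, chromosome 2, 103453849 to 103485160), which encodes catalase, varied least in LSK: 45.7, 51.7, 42.8 and 49.9 CPM. All 3 LSK ratios lay between -0.09 and 0.18. The Mll4 one, -0.09, ran from -0.395 to 0.15 over the settings tried, so the near-equal level depends on the processing. Clusters 6, 7 and 14 of the Mll4-labelled library held 30, 43.3 and 35.1 CPM. In gated cells the Mll3-labelled (-0.02, -0.11 to 0.08) and Mll3/4-labelled ratios (-0.02, -0.14 to 0.10) had intervals that included 0. The gated Mll4-labelled ratio was -0.24 (-0.40 to -0.08). Macrophage-like cells of the Mll4-labelled library held the most Cat of the named classes measured (107, 100 to 114) and its plasma and mature B-like cells the least (12.2, 8.86 to 16.5). Cluster 13 of that library, which was left unnamed, held more (128, 117 to 139). The plasma and mature B-like class was also the lowest named class for Sod1 (58.4), Sod2 (39.0), Prdx1 (155.5), Prdx2 (91.4) and Gclm (22.8). It was not the lowest for Foxo3, Gpx1, Txn1 or Txnip. A low level in that class is thus not particular to Cat.

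**Figure D3:**
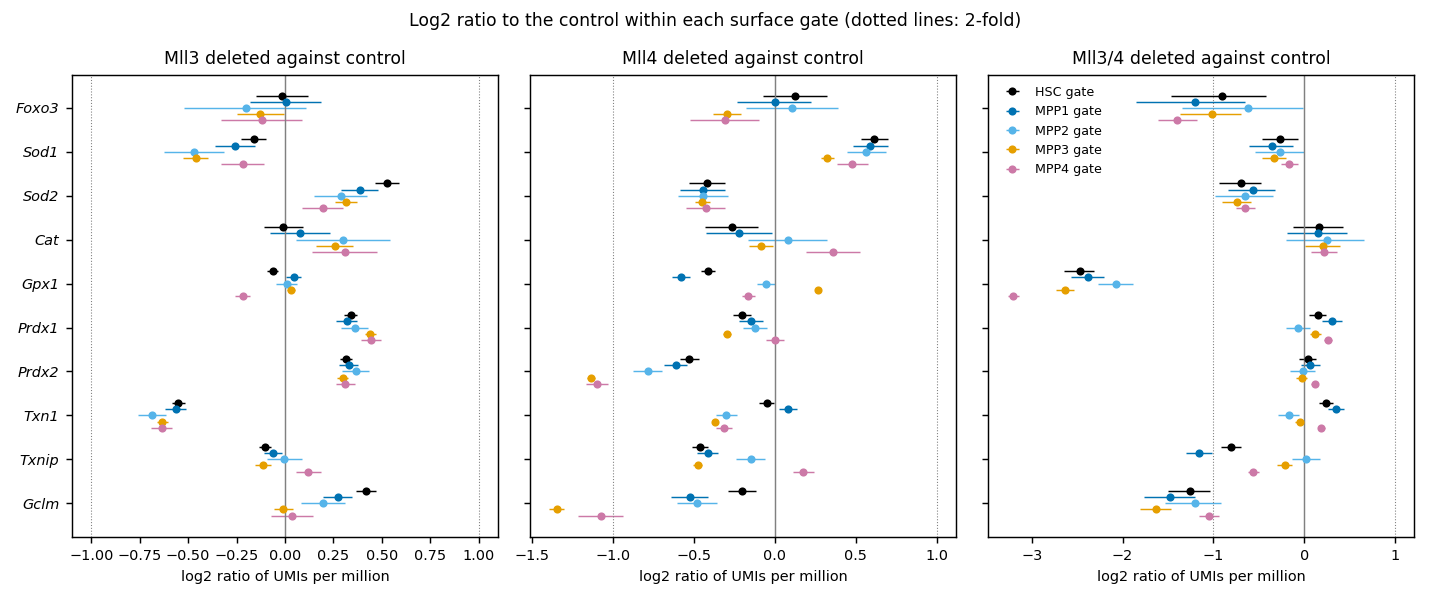
Log2 ratio to the control (x axis, 1 panel per library, scales differ) of the 10 genes (y axis) in 5 surface gates (colour), with 95% counting intervals. Txn1 lies left of 0 in all 5 gates of the Mll3 panel, Prdx2 and Sod2 left of 0 in all 5 of the Mll4 panel, and Gpx1 beyond -2 in all 5 of the Mll3/4 panel.

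Peroxiredoxins and thioredoxin, which form the other peroxide route, had similar LSK levels in the Mll3/4-labelled library and the control. Prdx1 (ENSMUSG00000028691, chromosome 4, 116685544 to 116700822) was at 432, 550, 371 and 473 CPM. Prdx2 (ENSMUSG00000005161, chromosome 8, 84969587 to 84974834) was at 482, 594, 240 and 497. Txn1 (ENSMUSG00000028367, chromosome 4, 57943373 to 57956411), the cytosolic thioredoxin, was at 630, 401, 523 and 641. The Mll3/4-labelled log2 ratios of these 3 were 0.13 (0.11 to 0.15), 0.04 (0.02 to 0.06) and 0.03 (0.01 to 0.04), and those of Prdx2 and Txn1 changed sign with the scaling.

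Txn1 was the gene of the list with the largest ratio in the Mll3-labelled library, 1.57-fold below the control (log2 -0.65, -0.67 to -0.63). In LSK 2.33% of 6084 genes were lower still. The ratio was -0.55 (-0.58 to -0.52) in gated cells. It was below 0 in 5 of 5 gates (-0.69 to -0.55) and in 6 of 6 clusters with at least 100 cells of both libraries (-0.76 to -0.53). HSC-like cells held 413 in the control and 287 in the Mll3-labelled library. B-lineage-like cells of the Mll3-labelled library held 584, above every shared cluster of that library, the highest of which held 471.

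Prdx1 and Prdx2 were above the control in the same 5 gates and 6 clusters of the Mll3-labelled library, by 0.25 to 0.45 and 0.29 to 0.36. In the Mll4-labelled library Prdx2 was 2.01-fold lower in LSK (log2 -1.01, -1.03 to -0.99) and lower in each of the 5 gates, from -0.53 in the HSC gate to -1.13 in MPP3. The CD150-high CD48-low cells gave 326 against 465 (-0.51, -0.57 to -0.46). Only 8 of the 2114 cells of other types in that library were CD150-high CD48-low, and its MPP1 and MPP2 gates held 266 and 145 cells. Most of the 2114 thus lay in its MPP3 and MPP4 gates, whose ratios mix cell types. By class Prdx2 in the Mll4-labelled library was at 204 in granulocyte-monocyte-like cells (cluster 6), against 376.5 in the control (mostly cluster 16). It was at 217 in T and innate lymphoid-like, 185 in mast-like, 166 in macrophage-like and 91.4 in plasma and mature B-like cells. Those classes had too few control cells for a value to compare. The unnamed clusters of the same library held 342 (cluster 7), 311 (cluster 14) and 102 (cluster 13). Prdx1 in B-lineage-like cells was 972 in the Mll3-labelled and 473 in the Mll3/4-labelled library (-1.04, -1.09 to -0.99). The 3-prime ends of Prdx1, Prdx2 and Sod1 each have near-identical copies (Gm21399 and Gm7204, Tdpx-ps1, and Gm8566) that are not among the counted genes, which makes their counts less certain.

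Txnip (ENSMUSG00000038393, chromosome 3, 96557957 to 96561883), the thioredoxin inhibitor, was at 395, 451, 265 and 251 CPM in LSK and 591, 549, 430 and 302 in gated cells. The gated level was above the LSK level in all 4 libraries. The Mll3/4-labelled ratio was -0.66 (-0.68 to -0.63) in LSK and -0.97 (-1.01 to -0.93) in gated cells, and the Mll4-labelled ratios were -0.58 (-0.60 to -0.56) and -0.46 (-0.51 to -0.41). Over the settings tried, the Mll4-labelled LSK ratio ran from -0.978 to -0.106, far beyond its counting interval. The Mll3-labelled ratio changed sign between LSK (0.19) and gated cells (-0.11).

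In the control Txnip was lower from gate to gate, with 599 in the HSC gate, 582 in MPP1, 339 in MPP2, 307 in MPP3 and 296 in MPP4. By class it was 831 in HSC-like, 259 in lymphoid-primed-like and 93.1 in granulocyte-monocyte-like control cells, and 816, 311 and 153 in the Mll3-labelled library. Mast-like cells (803) and T and innate lymphoid-like cells (745) of the Mll4-labelled library came near the HSC-like level. Clusters 6, 7 and 14 of that library held 78.6, 408 and 238. T and innate lymphoid-like cells of the Mll3-labelled library held 208, but lay mostly in cluster 20, and those of the Mll4-labelled library in clusters 15 and 22. B-lineage-like cells held 108 in the Mll3-labelled and 251 in the Mll3/4-labelled library, which is 2.33-fold higher (1.22, 1.08 to 1.36). Within the Mll3/4-labelled library the level ran from 384 in cluster 2 to 193 in cluster 5 and 89.1 in cluster 9.

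Dividing cells were compared with cells that showed no division marker. Each cell was thinned to 3000 UMIs and sorted by its summed count of 12 division markers, 3 or more against 0. Txnip was lower in marker-rich cells of every library, with log2 differences of -0.999, -1.11, -1.43 and -1.16. Txn1 was higher in marker-rich cells of every library, by 0.64, 0.70, 0.71 and 0.72. The Foxo3 differences were -0.39, -0.24, -0.18 and -0.42, each with an interval below 0. Gpx1 had no common direction: the difference was 0.86 in the Mll4-labelled library but -0.25 in the Mll3/4-labelled one. The division markers summed to 3218, 3511, 3350 and 3949 CPM, and the part of class makeup in these differences was not tested.

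**Figure D4:**
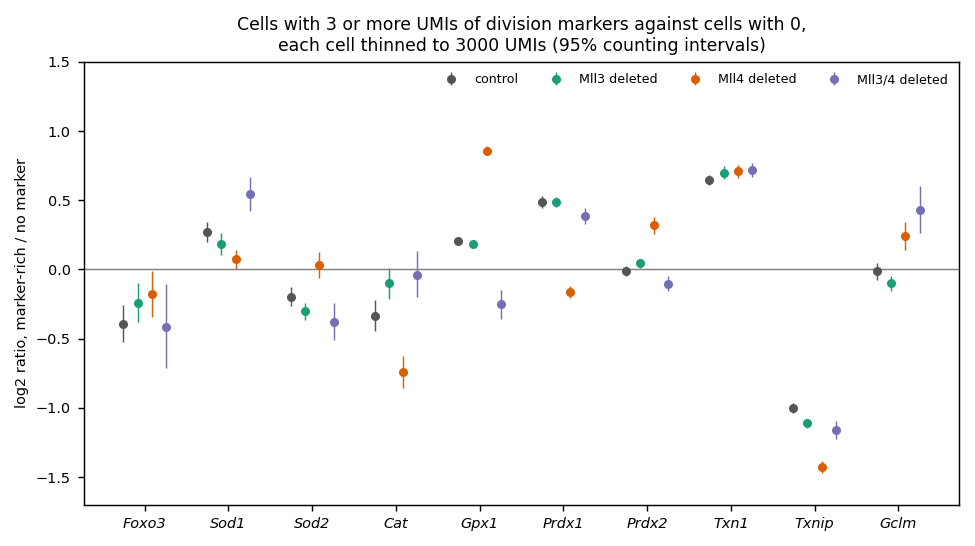
Log2 ratio of CPM between cells with 3 or more UMIs of division markers and cells with 0 (y axis), for the 10 genes (x axis) in the 4 libraries (colour), with 95% counting intervals. All 4 Txnip points lie at or below -0.999 and all 4 Txn1 points between 0.64 and 0.72.

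The 4 genotypes form a layout in which the Mll3/4-labelled ratio can be set against the sum of the 2 single log2 ratios, all taken against the same control library. In LSK the ratio minus the sum was -3.104 for Gpx1 (-3.15 to -3.06), -0.92 for Foxo3 (-1.05 to -0.78), -0.89 for Gclm (-0.96 to -0.82) and -0.76 for Sod2 (-0.83 to -0.70). It was 0.95 for Txn1 (0.92 to 0.97) and 0.75 for Prdx2 (0.72 to 0.78). Cat (0.04, -0.05 to 0.13) and Prdx1 (0.00, -0.03 to 0.03) did not differ from the sum beyond counting error. In gated cells Gpx1 (-2.46) and Gclm (-1.99) were at least 2-fold below the sum. Foxo3 was at -1.09 there, but short of 2-fold with TMM (-0.94) and median-of-ratios scaling (-0.95). The B-lineage-like makeup of the Mll3/4-labelled library moves with these values, and its part was not tested.

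Other genes of the same pathways were read from 4 lists, among members with at least 20 CPM. Of 19 other antioxidant enzymes in the Mll3/4-labelled LSK, 2 were at least 2-fold higher (7.53% of all genes) and 3 lower (8.75%), with a median log2 ratio of -0.39 beside -0.08 over all genes. Txnrd3, a thioredoxin reductase, was at 202 against 19.5 (log2 3.37) and the endoplasmic-reticulum peroxiredoxin Prdx4 at 235 against 103 (1.19). Prdx6, which is known to use glutathione, was at 101 against 343 (-1.77), with Msra (-1.19) and Tkt (-1.08) also lower. In the Mll4-labelled LSK 3 of 19 were higher (5.77% of all genes) and 1 lower (3.08%), with a median of -0.26 beside -0.12. Glutathione reductase, Gsr, stood at 210 against 45.1 (2.22), with Msrb1 at 1.51 and Prdx4 at -1.26.

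Of 13 redox and FOXO regulators in the Mll3/4-labelled LSK, 3 were higher (7.53% of all genes) and 4 lower (8.75%), with a median of -0.13 beside -0.08. Foxo1, the FOXO factor known for its role in early B cells, was at 541 against 7.52 (log2 6.17) while Foxo3 was lower. The kinase gene Sgk1 was also higher (4.75). The mitochondrial deacetylase Sirt3 was at 10.6 against 160 (-3.92), Mafg at -1.30 and Sgk3 at -1.26. Sirt3 was also the 1 of 11 past 2-fold in the Mll4-labelled LSK (3.08% of all genes lower), at 60.6 against 160 (-1.41).

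Of 13 genes described as FOXO targets, 4 were higher and 1 lower in the Mll3/4-labelled LSK, beside 7.53% and 8.75% of all genes, and the median was 0.58 beside -0.08. The interleukin-7 receptor gene Il7r was at 1020 against 5.16 (log2 7.63) and is itself one of the B-lineage markers. The cell-cycle inhibitors Cdkn1a (2.45) and Cdkn1b (1.54) were higher and Gabarapl1 lower (-1.41). In the Mll4-labelled LSK Il7r (3.35), Klf2 (2.63) and Cited2 (1.31) were the 3 of 12 that were higher (5.77% of all genes), and Sesn3 (-1.18) was lower (3.08%).

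Of 7 oxidant-producing enzymes in the Mll4-labelled LSK, 3 were higher (5.77% of all genes), with a median of 0.68 beside -0.12 over all genes: the NADPH oxidase subunit Cybb at 260 against 8.27 (log2 4.98), myeloperoxidase, Mpo, at 3781 against 174 (4.44), and Ncf1 (1.13). Of the 4 above the minimum in the Mll3/4-labelled LSK 2 were lower (8.75% of all genes), among them Mpo at 11.3 against 174 (-3.94). Mpo is also one of the granulocyte-monocyte markers. In the Mll3-labelled LSK no gene of the 4 lists passed 2-fold, among 19, 11, 9 and 5 members, and the medians were 0.31, 0.09, 0.15 and 0.07 beside 0.10 over all genes. Of the genes counted above, Bcl2l11 (1.52) and Bach1 (-1.13) in the Mll3/4-labelled and G6pdx (1.06) in the Mll4-labelled library fell outside the naming rule and are given because the counts are small.

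The genes whose levels ran most like those of Foxo3 over the 20 sums of 4 libraries by 5 gates were Gcnt2 (Pearson r = 0.972), Hlf (0.971), Vldlr (0.971), Ankrd13a (0.970) and Etv6 (0.970), of 6040 genes considered. For Txnip they were Letm2 (0.935), Phactr2 (0.912), Zbtb38 (0.899), Samd12 (0.890) and Aplp2 (0.877). The 20 points share 4 libraries, their depth and their cell makeup, so these values describe likeness only. Hlf is one of the stem-cell markers. Between Foxo3 and the other 9 genes the same measure ran from -0.47 for Txn1 to 0.89 for Gpx1.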

How the data were processed

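The deposited matrices held raw counts of UMIs and of 6 antibody tags per barcode. Per the labels' protocols the chemistry was 10x Genomics 3-prime, and per the submitters' processing notes and the file headers Cell Ranger 6.1.1 was used, on the build mm10. The barcode filter is not given in the sources used here. The 10 genes and the lists were chosen with earlier results of these data known. Levels are summed UMIs per 1000000 (CPM), log2 ratios add 0.5 UMIs, and intervals at 95% are exact Poisson, conditional binomial or, for shares, Clopper-Pearson. Deviations from the sum of the single ratios have normal intervals on the log of Poisson sums.

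Antibody counts became centred log ratios (natural log) over the 6 tags, cut at 1 threshold per antibody from a mixture of 2 Gaussians. The CD135-low cells were split by CD150 and CD48 into HSC (high, low), MPP1 (low, low), MPP2 (high, high) and MPP3 (low, high) gates, and MPP4 was CD150-low and CD135-high. The CD135 signal was continuous, so gates that use it divide a continuum. Cells were clustered with scanpy 1.11.5, without the 10 genes and the wider lists (2000 variable genes, 30 components, 15 neighbours, Leiden resolution 0.6). A cluster took a name when at least 3 markers and 60% of a list were raised 2-fold at 20 CPM, with further conditions on its 10 top genes and its depth. The 60% was chosen after seeing the data. Cluster 13 raised all 10 macrophage markers but was left unnamed. Its 10 top genes held no listed marker and its median depth was far below that of its library (6498 against 21400 UMIs). It was counted with the cells of other types. Scrublet called 3, 3, 171 and 1 doublets, too few in 3 libraries, so none was removed in the main values and 423, 298, 184 and 180 top scores in an alternative.

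The 10 genes and, from each wider list, the 3 highest and 3 lowest ratios of the Mll3/4-labelled LSK and the 3 most extreme of the Mll4-labelled LSK were named. Some genes that this rule takes in are not reported here. Gene coordinates are from GENCODE M21, which held 99.6% of the 32285 gene identifiers. Near-identical 3-prime ends were searched with BLAST 2.17.0. TMM factors came from edgeR 4.0.16, which was used for scaling and for no test. On simulated counts with 200 changed genes among 5985, the call rule recovered 100% of them in each LSK comparison and called 0 unchanged genes. Counting error was the only error simulated. Recovery of genes close to 2-fold, where the Prdx2 and Gclm calls of the Mll4-labelled LSK lie, was not tested.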

Additional observations from a re-analysis of the deposited data

Results flagged for a closer look

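Cat in the Mll4-labelled library went opposite ways in different surface gates: its log2 ratio to the control was 0.36 in the MPP4 gate and -0.27 in the HSC gate. Gpx1 in the same library had a log2 ratio of 0.27 in the MPP3 gate and -0.58 in the MPP1 gate. These values stood out because both ratios were at least 0.25 from 0 with counting intervals on opposite sides of it. Smaller differences of that kind were also present for Txnip and Txn1 in the Mll4-labelled, Gpx1 and Txnip in the Mll3-labelled and Txn1 in the Mll3/4-labelled library, and the difference between gates was not tested. The MPP3 and MPP4 gates of the Mll4-labelled library held most of its mast, macrophage, plasma, lymphoid and stromal cells, so these gates are not like for like with the control. The gates of the Mll3/4-labelled library, which held mostly B-lineage-like cells, are not either.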

How the results depend on the processing

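With 1 library per genotype, no value has a replicate check, a library cannot be told apart from its genotype, and depth limits the levels of low genes, chiefly Foxo3 in small gates, and the unthinned shares of cells of high genes too. No paired analysis was possible because each group holds 1 library. Of 600 log2 ratios recomputed under other settings, 11 changed sign where the main interval lay apart from 0. Of the others 380 stayed within the main counting interval and 209 left it, and 9 of these changed sign where the main interval included 0. TMM scaling shifted all Mll3/4-labelled gated ratios by 0.11, and median-of-ratios scaling the Mll4-labelled and Mll3/4-labelled LSK ratios by 0.12.

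The 2 genes past 2-fold in the Mll4-labelled LSK became 1 (Gclm) under TMM, and 0 under median-of-ratios scaling, the stricter cell filter, without the clusters of other cell types, or with gates weighted to control shares. At 1.5-fold the counts were 1 in the Mll3-labelled LSK (Txn1), 1 in Mll4-labelled gated cells (Sod1), and 5 in Mll3/4-labelled LSK and in its gated cells (Foxo3, Sod2, Gpx1, Txnip and Gclm). Totals without mitochondrial and ribosomal protein genes made 4 genes in Mll3/4-labelled gated cells, Foxo3 and Txnip added. In LSK, genes at least 2-fold from the sum of single ratios went from 1 (Gpx1) to 2 (Txn1 added) under TMM, median-of-ratios and those totals. Unthinned, 10 genes had shares apart from the control in Mll3/4-labelled gated cells, against 6 when thinned. Wider-list genes past 2-fold numbered 3 at a minimum of 5 CPM in Mll3-labelled LSK and in its gated cells, 6 in Mll4-labelled gated cells at 5, and 5, 8 and 7 at a minimum of 100 in Mll4-labelled LSK, Mll3/4-labelled LSK and Mll3/4-labelled gated cells.

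The sign changes where the main interval lay apart from 0 were these. With gates weighted to control shares, Txnip in the Mll3-labelled LSK was -0.077 and Gpx1 in the Mll4-labelled LSK -0.016. Cat in the Mll4-labelled LSK was 0.023 with median-of-ratios scaling and 0.15 with equal weight per cell. In the Mll3/4-labelled LSK, Prdx2 was -0.021 without mitochondrial and ribosomal protein genes in the total and -0.00011 with equal weight per cell, and Txn1 was -0.038, and -0.023 with equal weight and -0.006 with the stricter filter. In Mll3/4-labelled gated cells Prdx1 was -0.012 and Txn1 -0.00075 without those genes in the total. The other 9 were in gated cells: Foxo3 (0.093) and Cat (0.106) in the Mll3-labelled library, and Cat (up to 0.161) and Prdx2 (down to -0.056) in the Mll3/4-labelled one. Unthinned, the share of cells with Prdx1 in the Mll3/4-labelled LSK differed from the control by -5.53 percentage points, and that with Sod2 in Mll4-labelled gated cells by 9.62. The cause was not tested for any of these.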
